A study of Mus musculus with 4 samples.

Results

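The Lrrc genes carry a symbol made of Lrrc, a number and at most 1 letter, given to proteins that contain leucine-rich repeats and that had no better name when they were catalogued. Of 55335 genes in the deposited count table, 65 met this rule, with Lrrc6 left out. Members were chosen by symbol, after their values in these libraries had been seen, so all differences between the groups given for them are descriptions, and no test of them is offered as support. Poly(A) RNA came from fresh mouse testes at postnatal day 14, with 2 Znhit1_KO libraries and 2 CTRL libraries, each labelled a biological replicate. The SRCAP remodeller, of which ZNHIT1 forms part, exchanges H2A for the variant H2A.Z in nucleosomes, and the study asks about gene expression in male meiosis. For both groups the sources used here do not give the strain, the allele, any Cre driver or the animals pooled per library.

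A leucine-rich repeat is a short stretch of protein with regularly spaced leucines, and repeats in tandem fold into a curved solenoid whose inner face binds other proteins. The domain says little about function: Lrrc proteins sit in the axoneme of cilia and sperm tails, in chloride channels, at synapses, on immune cells, in muscle and in the cytoplasm of most cells. Genes of the sperm tail begin to be transcribed in spermatocytes during meiotic prophase, long before a tail is built, and spermatocytes are the most advanced germ cells of a mouse testis at this age.

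The estimated counts summed to between 129531714 and 157790457 per library. Znhit1 itself stood at 8.0 and 5.24 TPM (the authors' depth- and length-adjusted unit) in the Znhit1_KO libraries, against 55.4 and 90.2 TPM in the CTRL libraries. Testis cell types were present in all libraries. The 8 spermatocyte markers summed to 1615 and 2426 CPM in Znhit1_KO libraries and 2492 and 4432 CPM in CTRL libraries. CPM here are TMM-scaled counts relative to library size, not adjusted for length. Of these markers 8 of 8 were lower in the mean, and 5 without overlap between groups, where 21.3% of all genes tested were. The 10 Sertoli cell markers summed to 7610 and 6579 CPM in Znhit1_KO libraries and 5391 and 5763 CPM in CTRL libraries. Of the 4 round spermatid markers, Prm1 and Tnp1 were at 0 in at least 1 library and Acrv1 stayed under 1 CPM in all 4. Tssk6, the other marker, was above 0 in every library and reached 1 CPM in at least 1. The 4 summed to 1.80 and 2.53 CPM in Znhit1_KO libraries and 1.96 and 2.17 CPM in CTRL libraries. In whole testes, fewer cells of a type and less RNA per cell cannot be told apart.

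Of the tested Lrrc genes listed for cilia, sperm tails or testis, 10 of 14 were lower in the Znhit1_KO libraries without overlap between the groups, and the authors' deposited table marks 7. Lrrc27 and Lrrc37a, outside that list, were among the genes of lowest log2 change. The 5 Lrrc8 channel genes had positive log2 changes, and genes of general cell functions lay on both sides of 0. The role lists were chosen with results known, and no difference between roles was tested. Of the 65 members, 54 passed the filter on low counts and 11 did not. The median log2 change (Znhit1_KO over CTRL, edgeR) of those 54 was -0.13, beside 0.03 over all 24116 genes tested. Overlap between groups was judged on CPM. Without overlap, 13 were lower in both Znhit1_KO libraries, against 21.3% of all genes tested, and 12 were higher, against 21.8%. As shares of the 54, they were 24.1% lower and 22.2% higher.

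The authors' deposited table marks 9 members as lower and 0 as higher, where it marks 3.22% of its genes lower and 0.277% higher. The 9 were Lrrc63, Lrrc23, Lrrc27, Lrrc71, Lrrc37a, Lrrc36, Lrrc9, Lrrc49 and Lrrc56. The quasi-likelihood test of edgeR, fitted over all genes, called 0.0% of genes and 0 members at an adjusted p of 0.05. At an unadjusted p of 0.05 the edgeR test put 11 members lower, where 7.75% of all genes passed, and 1 higher, where 2.99% passed. DESeq2 called 10 members, all lower, where 3.61% of genes were called lower and 0.399% higher, and limma-voom called 0. Calls from fits with 1 library left out are not given, since 1 group then holds only 1 library. Because the rule took up these genes with this contrast known, nothing is read from these shares.

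**Figure D1:**
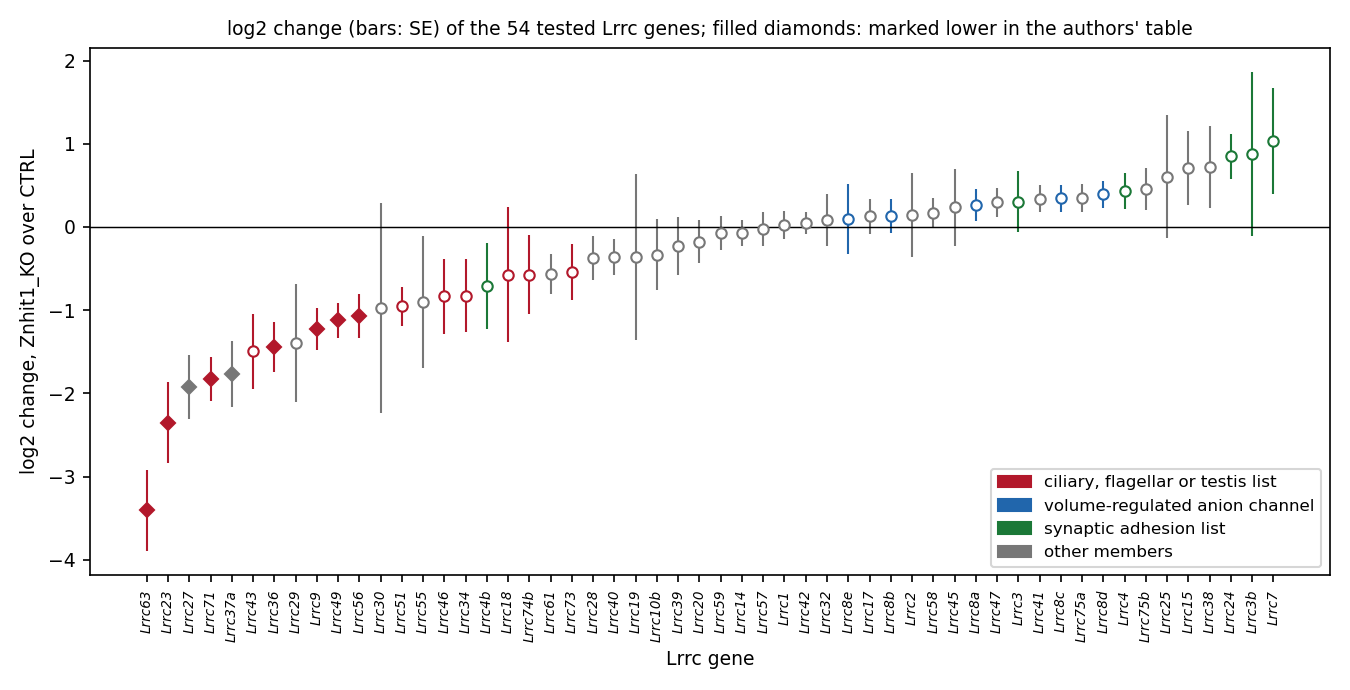
The log2 change (Znhit1_KO over CTRL) on the vertical axis, with its standard error as a bar, for each of the 54 tested Lrrc genes in order. Filled diamonds are the 9 that the authors' deposited table marks as lower; all 14 tested genes of the ciliary, flagellar or testis list lie below 0, and all 5 Lrrc8 channel genes lie above it.

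The ciliary, flagellar or testis list held 18 members in the count table, of which 14 were tested. All 14 had a negative log2 change, with a median of -1.10, and 10 were lower without overlap between the groups, where 21.3% of all genes tested were. Among the 10, Lrrc74b stood at no more than 0.798 TPM in any library, with a log2 change of -0.57 (SE 0.474). The authors' deposited table marks 7 of the 14, where it marks 3.22% of its genes lower. Over the 40 tested members outside this list the median was 0.11. Of these, 3 were lower (7.5%) and 12 higher (30%) without overlap, where 21.8% of all genes tested were higher. Spermatocyte marker levels moved in the same direction as this list, and their part in it was not tested.

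Lrrc23, a protein of the axonemal radial spoke, is the best characterised of the genes that were far lower. Lrrc23 (ENSMUSG00000030125.11, protein-coding, chromosome 6, 124769863 to 124779727, minus strand, mm10) stood at 5.56 and 7.53 TPM in the Znhit1_KO libraries, against 19.5 and 41.7 TPM in the CTRL libraries. Both Znhit1_KO values lay below both CTRL values, although the CTRL libraries themselves differed by more than the Znhit1_KO libraries did. The log2 change was -2.35 (SE 0.485), a 5.10-fold lower level, and it was -1.57 without CTRL replicate 2.

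The sequence before the Lrrc23 start is shown because it holds the letters GTTGCCA on each strand, the half-site of the X-box that RFX factors bind in many ciliary genes. It is compared with Lrrc9, which was also lower and has no such letters. Each is the 250 bases before the RefSeq start (GRCm38.p6, the assembly that mm10 names), written 5′ to 3′ on the gene's strand, with the half-site or its reverse complement TGGCAAC in capitals.
Lrrc23, chr6:124779728-124779977, minus strand: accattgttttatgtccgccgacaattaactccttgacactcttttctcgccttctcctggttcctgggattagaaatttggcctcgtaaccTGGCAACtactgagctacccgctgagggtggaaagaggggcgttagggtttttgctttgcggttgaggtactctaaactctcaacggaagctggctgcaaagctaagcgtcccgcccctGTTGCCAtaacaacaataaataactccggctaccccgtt
Lrrc9, chr12:72441616-72441865, plus strand: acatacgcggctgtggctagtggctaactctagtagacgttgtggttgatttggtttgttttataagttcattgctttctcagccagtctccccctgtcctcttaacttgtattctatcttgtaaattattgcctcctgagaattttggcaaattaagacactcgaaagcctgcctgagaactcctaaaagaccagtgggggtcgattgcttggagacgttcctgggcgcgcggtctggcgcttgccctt

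RefSeq promoters were found for 53 of the 65 members, 61 stretches in all because some genes have several starts. GTTGCCA, on either strand, was found in 6 of those 61 and in 3.66% of 32851 promoter stretches of the same length. These letters were settled on after several strings had been tried, so the difference is a description. The 6 genes were Lrrc23, Lrrc34, Lrrc49, Lrrc56, Lrrc73 and Lrrc10b; all but Lrrc10b belong to the ciliary, flagellar or testis list. One site per gene is lined up here for 5 of them to show the bases around the half-site, with GTTGCCA in capitals, each read on the gene's strand and placed relative to the RefSeq start, which lies inside the GENCODE gene for each of the 6 but Lrrc23.
Lrrc23, chr6:124779750-124779776, 32 bases before the start: tcccgcccctGTTGCCAtaacaacaat
Lrrc34, chr3:30647852-30647878, 43 bases before the start: agcttctgtgGTTGCCAtgggagcgac
Lrrc49, chr9:60688159-60688185, 34 bases before the start: ggaagtcatgGTTGCCAtagccaccga
Lrrc56, chr7:141195062-141195088, 64 bases before the start: ccccgcccccGTTGCCAtggcgccagg
Lrrc10b, chr19:10457585-10457611, 147 bases before the start: cgcgtcggggGTTGCCAgggcgacggg
The other Lrrc23 site, on the opposite strand 151 bases before the start, stands in the sequence above as TGGCAAC. In Lrrc73 the site lay 241 bases before the start, near the end of the stretch. The full palindromic X-box was found in 1 of the 61 member stretches, that of Lrrc73, and in 0.667% of all. The MYB letters AACTGNC were found in 7 of the 61 and 10.6% of all, in 6 genes, and the CRE letters TGACGTCA in 1 of the 61 and 1.55% of all; both strands were searched for each. These are matches of letters and not sites of binding. Among genes with a half-site, the authors' deposited table marks 3 as lower (Lrrc23, Lrrc49 and Lrrc56), of 8 marked genes with a promoter. Of the 35 tested members with a promoter that are not marked, 3 held a half-site. The difference was not tested.

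Lrrc56 is needed to carry outer dynein arms to the cilium, and Lrrc49 is a subunit of the tubulin polyglutamylase complex. Lrrc56 (chromosome 7, 141194157 to 141210055) stood at 18.2 and 19.6 TPM in Znhit1_KO libraries, against 31.8 and 46.0 TPM in CTRL libraries, a log2 change of -1.07 (SE 0.259). Lrrc49 (chromosome 9, 60568859 to 60688158) stood at 21.8 and 22.8 TPM in Znhit1_KO libraries, against 43.4 and 51.4 TPM in CTRL libraries, a log2 change of -1.12 (SE 0.216). For both genes the Znhit1_KO libraries were close to each other and well below the CTRL libraries. Lrrc56 was the marked gene nearest the authors' fold limit of 2. Lrrc51 lay just outside it: 22.0 and 22.2 TPM in Znhit1_KO libraries and 38.7 and 44.7 TPM in CTRL libraries, where the authors' deposited table gives -0.96 for log2 change and 0.0176 for adjusted p (DESeq2). Lrrc51 shares 49.6% of its exonic bases with Lamtor1 on the opposite strand, and no source used here says whether the libraries keep strand, so reads on the shared bases could not be told from those of Lamtor1.

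Lrrc63 had the lowest log2 change of the family. Lrrc63 (ENSMUSG00000021997.4, chromosome 14, 75084303 to 75130881, minus strand) stood at 0.693 and 0.906 TPM in Znhit1_KO libraries, against 5.49 and 10.7 TPM in CTRL libraries. The log2 change was -3.41 (SE 0.490), a 10.6-fold lower level, and it ran from -3.88 without CTRL replicate 1 to -2.71 without CTRL replicate 2.

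Lrrc71, Lrrc36 and Lrrc9 had intermediate changes and no overlap between groups. Lrrc71 (chromosome 3, 87736923 to 87748625) stood at 4.63 and 5.2 TPM in Znhit1_KO libraries, against 15.1 and 19.7 TPM in CTRL libraries, a log2 change of -1.82 (SE 0.265). It shares 21.8% of its exonic bases with Arhgef11 on the opposite strand and 7.05% with Pear1 on the same strand, and reads there could not be assigned with certainty. Lrrc36 (chromosome 8, 105413571 to 105464086) stood at 2.53 and 3.53 TPM in Znhit1_KO libraries, against 8.25 and 8.31 TPM in CTRL libraries, a log2 change of -1.45 (SE 0.299). It was the marked gene whose CTRL libraries lay closest together in TPM. Lrrc9 (chromosome 12, 72441866 to 72530750) stood at 4.71 and 5.61 TPM in Znhit1_KO libraries, against 10.3 and 12.7 TPM in CTRL libraries, a log2 change of -1.23 (SE 0.254). Lrrc43, at a far lower level, had 0.789 and 0.865 TPM in Znhit1_KO libraries, against 1.69 and 2.76 TPM in CTRL libraries, and is not marked (log2 change -1.49, SE 0.448).

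**Figure D2:**
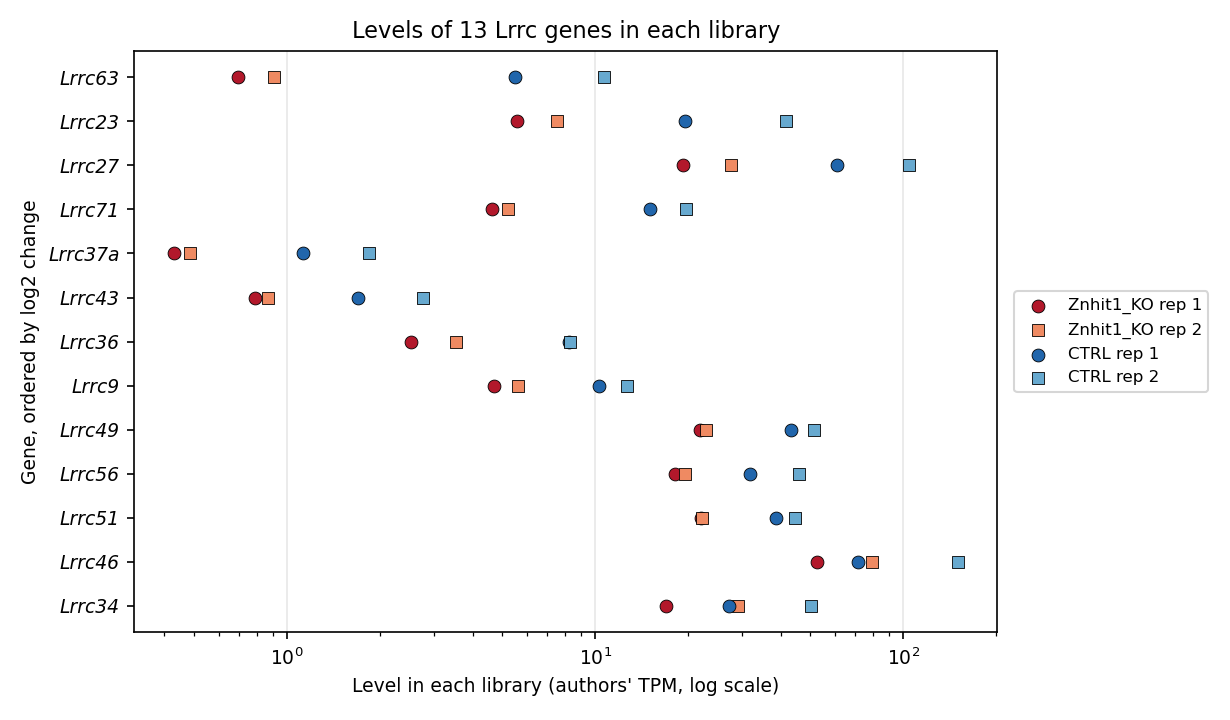
Level of 13 Lrrc genes in each library, as the authors' TPM on a log axis, with the Znhit1_KO libraries in red and orange and the CTRL libraries in blue. The genes run from the lowest log2 change at the top; the groups overlap in Lrrc46 and Lrrc34 and in no other gene shown.

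Not all genes of the list were separated. Lrrc46, which is needed for the sperm flagellum in mice, was the most abundant of the list, with 52.5 and 79.1 TPM in Znhit1_KO libraries, against 71.6 and 150.7 TPM in CTRL libraries. Lrrc34 had 17.0 and 29.0 TPM in Znhit1_KO libraries, against 27.3 and 50.4 TPM in CTRL libraries. In both genes Znhit1_KO replicate 2 exceeded CTRL replicate 1, so the groups overlapped, and their log2 changes were the same to 2 decimals, -0.83 (SE 0.452 and 0.441 in that order). With 1 library left out, the log2 change ran from -1.34 to -0.06 for Lrrc46 and from -1.30 to -0.19 for Lrrc34, the values nearest 0 being those without CTRL replicate 2. Lrrc73 also overlapped, with 10.5 and 13.3 TPM in Znhit1_KO libraries and 12.5 and 20.1 TPM in CTRL libraries. Lrrc18, which overlapped, and Lrrc74b, which did not, were tested at under 1 TPM in every library. Lrrc52, a partner of the sperm potassium channel Slo3, and Lrrc69, Lrrc72 and Lrrc74a did not pass the filter.

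The 2 libraries of each group also differed in these genes. All 9 members marked by the authors were higher in replicate 2 than in replicate 1 of CTRL, by a median of 0.65 on the log2 scale, and all 9 also in Znhit1_KO, by a median of 0.26. Over the 54 tested members those medians were 0.27 in CTRL and 0.07 in Znhit1_KO. The summed spermatocyte markers were likewise higher in replicate 2 of each group, and their part in the replicate difference was not tested. The labels do not tie the numbers to a shared litter or day.

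**Figure D3:**
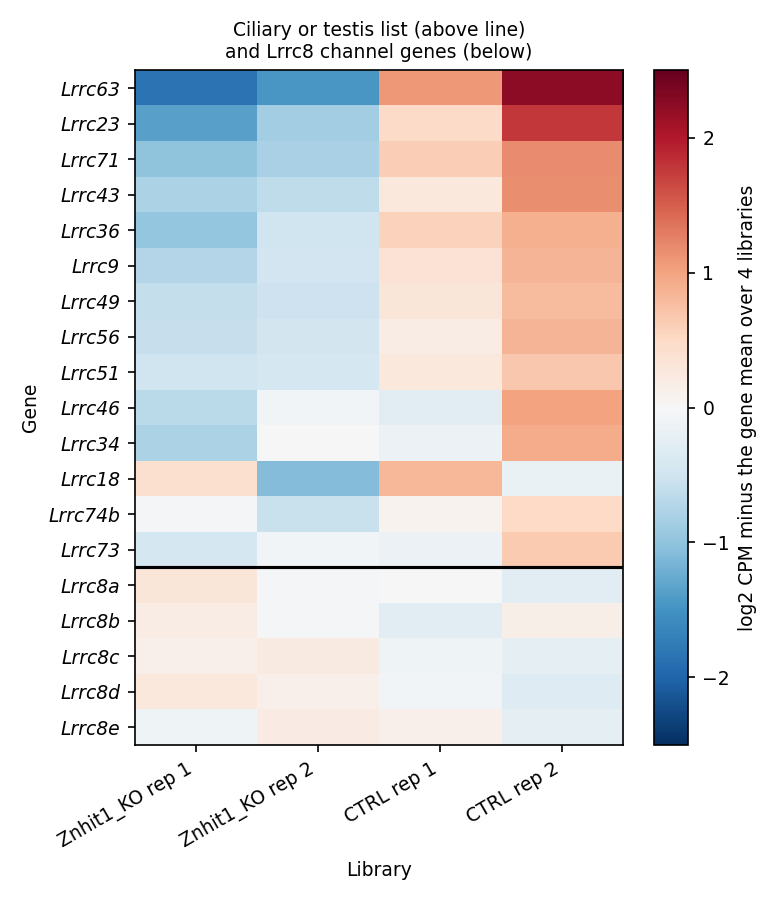
Colour shows log2 CPM in each library (columns) minus the gene's mean over the 4 libraries, for the 14 tested genes of the ciliary, flagellar or testis list above the line and the 5 Lrrc8 genes below it. CTRL replicate 2 is the highest library for 13 of the 14 listed genes, the exception being Lrrc18, and no such order is seen in the Lrrc8 genes.

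Outside the ciliary, flagellar or testis list, the authors' deposited table marks Lrrc27, listed under general cell functions, and Lrrc37a, listed under no role. Lrrc27 (chromosome 7, 139212988 to 139242979, plus strand) was abundant, with 19.3 and 27.6 TPM in Znhit1_KO libraries, against 61.0 and 104.1 TPM in CTRL libraries, a log2 change of -1.92 (SE 0.388). Its groups did not overlap, and the log2 change was -1.34 without CTRL replicate 2. Lrrc37a (chromosome 11, 103451955 to 103504597) had 0.428 and 0.485 TPM in Znhit1_KO libraries, against 1.13 and 1.84 TPM in CTRL libraries, a log2 change of -1.77 (SE 0.392). LRRC37 genes form a family of related copies, so the division of reads among them is uncertain. Lrrc29, listed under general cell functions, had a log2 change of -1.39 but overlapped between groups, at 2.82 and 7.50 TPM in Znhit1_KO libraries and 6.80 and 22.2 TPM in CTRL libraries. With 1 library left out its log2 change ran from -2.22 without Znhit1_KO replicate 2 to -0.22 without CTRL replicate 2. Lrrc61, at 19.5 and 20.5 TPM in Znhit1_KO libraries and 23.7 and 31.0 TPM in CTRL libraries, was lower without overlap, with a log2 change of -0.57 (SE 0.238), and shares 30.6% of its exonic bases with Rarres2 on the opposite strand.

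The 15 members of general cell functions were all tested, with a median log2 change of -0.07. Without overlap 2 (Lrrc27 and Lrrc61, 13.3%) were lower and 3 (Lrrc41, Lrrc42 and Lrrc47, 20%) higher, against 21.3% and 21.8% of all genes tested. They held 4 of the 5 members of highest mean TPM. Lrrc41, a substrate adaptor of a cullin ubiquitin ligase, had 220.8 and 246.8 TPM in Znhit1_KO libraries, against 179 and 179 TPM in CTRL libraries, a log2 change of 0.34 (SE 0.159). Its exons overlap those of Rad54l on the opposite strand over 31.9% of their bases. Lrrc42 had 211 and 208 TPM in Znhit1_KO libraries, against 209.6 and 182.9 TPM in CTRL libraries; its log2 change of 0.05 (SE 0.134) was smaller than its error, and its groups overlapped in TPM but not in CPM. Lrrc59, a membrane protein of the endoplasmic reticulum, had 134.0 and 155 TPM in Znhit1_KO libraries, against 134.2 and 159.6 TPM in CTRL libraries, with a log2 change of -0.08 (SE 0.202). Lrrc47 had 93.9 and 103.8 TPM in Znhit1_KO libraries, against 73.5 and 81.8 TPM in CTRL libraries, a log2 change of 0.29 (SE 0.177), and shares 29.7% of its exonic bases with Smim1 on the opposite strand. Lrrc45, a protein of the linker between centrioles, overlapped between groups, and in each group replicate 1 was the higher library: 26.8 and 14.1 TPM in Znhit1_KO libraries and 22.7 and 10.3 TPM in CTRL libraries. Lrrc1, Lrrc14 and Lrrc57 had log2 changes of 0.03, -0.07 and -0.02, each smaller than its SE.

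The Lrrc8 genes encode the volume-regulated anion channel, through which swollen cells release chloride and small organic molecules; LRRC8A is the required subunit and the others combine with it. All 5 were tested and had positive log2 changes, with a median of 0.26. Lrrc8d, the most abundant in TPM, had 69.5 and 62.5 TPM in Znhit1_KO libraries, against 58.3 and 41.6 TPM in CTRL libraries, a log2 change of 0.39 (SE 0.163). Lrrc8c had 15.5 and 16.6 TPM in Znhit1_KO libraries, against 13.7 and 10.9 TPM in CTRL libraries, a log2 change of 0.35 (SE 0.162). Lrrc8c and Lrrc8d (40% of the 5) were higher without overlap, where 21.8% of all genes tested were. Lrrc8a, Lrrc8b and Lrrc8e overlapped. Lrrc8a had 41.6 and 32.3 TPM in Znhit1_KO libraries and 34.7 and 25.5 TPM in CTRL libraries; 66.2% of its exonic bases are shared with the annotated gene Gm28035 on the same strand. Lrrc8b had 31.9 and 27.1 TPM in Znhit1_KO libraries and 23.7 and 28.1 TPM in CTRL libraries, and its log2 change of 0.13 turned to -0.07 without CTRL replicate 1 and -0.01 without Znhit1_KO replicate 1. Lrrc8b, Lrrc8c and Lrrc8d lie next to each other on chromosome 5, between 105415775 and 105832436. Lrrc8e stayed between 0.344 and 0.524 TPM. Sertoli cell markers were higher in the same libraries, with a median log2 change of 0.42. Without overlap 9 of 10 were higher, where 21.8% of all genes tested were. Leydig cell, macrophage and endothelial markers also had positive medians (0.41, 0.68 and 0.33). Those of peritubular myoid cells and spermatogonia were -0.03 and -0.10. The part of any cell type in the Lrrc8 values was not tested.

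Of the 6 tested members of the synaptic adhesion list, 5 had positive log2 changes. Without overlap 4 were higher (Lrrc4, Lrrc24, Lrrc7 and Lrrc3), where 21.8% of all genes tested were. For Lrrc3 the log2 change of 0.30 (SE 0.370) was smaller than its error, at no more than 0.593 TPM in any library. Lrrc4, a netrin-G ligand, had 15.6 and 13.96 TPM in Znhit1_KO libraries, against 12.7 and 8.74 TPM in CTRL libraries, a log2 change of 0.43 (SE 0.214). Lrrc24 had 5.78 and 5.88 TPM in Znhit1_KO libraries, against 3.73 and 2.71 TPM in CTRL libraries, a log2 change of 0.85 (SE 0.275); 46.8% of its exonic bases are shared with Lrrc14 on the opposite strand. Lrrc7, the postsynaptic scaffold densin, had the highest log2 change of the family, 1.04 (SE 0.636), at no more than 0.114 TPM in any library. Lrrc4b was the listed gene on the other side of 0, at -0.71 (SE 0.516), with overlap. Outside this list, Lrrc75a was also higher without overlap, with 40.2 and 39.4 TPM in Znhit1_KO libraries, against 33.6 and 27.0 TPM in CTRL libraries.

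The remaining roles were weakly represented. Of the BK channel gamma subunits, Lrrc55 (log2 change -0.90, SE 0.793) and Lrrc38 (0.72, SE 0.493) were tested and opposed in sign. Lrrc55 overlapped between groups, and Lrrc38 was higher without overlap, at no more than 0.671 TPM in any library. Lrrc26 did not pass the filter. Among immune, secreted or surface members, Lrrc32, which displays latent TGF-beta on regulatory T cells and platelets, was at 1.92 and 1.93 TPM in Znhit1_KO libraries and 2.19 and 1.33 TPM in CTRL libraries, and the secreted Lrrc17 at 13.4 and 14.1 TPM in Znhit1_KO libraries and 13.98 and 10.7 TPM in CTRL libraries. Both overlapped. Of the 5 heart and muscle members 3 were tested, and all 3 overlapped between groups. The 11 untested members reached at most 0.0889 CPM in any library, and 2 of them, Lrrc14b and Lrrc72, were at 0 in all 4.

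Many Lrrc genes begin head to head with another gene. With a limit of 1000 bp between the starts, 16 members had a protein-coding neighbour on the opposite strand with both genes tested. In 4 pairs the authors' deposited table marks the Lrrc gene as lower, and its neighbour is marked in 0 of those 4. Over all its genes that table marks 3.22% lower and 0.277% higher, so 0 of 4 says little about the neighbours. The starts of Lrrc63 and Lcp1, an actin-bundling protein of blood cells, lie 220 bp apart, yet Lcp1 had 4.07 and 4.49 TPM in Znhit1_KO libraries, against 4.41 and 2.82 TPM in CTRL libraries, a log2 change of 0.45 (SE 0.241) beside -3.41 for Lrrc63; its groups overlapped in TPM but not in CPM. The starts of Lrrc27 and Stk32c lie 319 bp apart, but the genes overlap there. Stk32c shares 2.53% of the exonic bases of Lrrc27, on the opposite strand. Their log2 changes were -1.92 for Lrrc27 and 0.57 (SE 0.280) for Stk32c. Lrrc56 and Hras, with GENCODE starts 152 bp apart, had log2 changes of -1.07 and 0.36 (SE 0.222 for Hras). The RefSeq start of Lrrc56 used for its half-site lies more than 1000 bp from that Hras start.

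In the fourth marked pair the neighbour's log2 change was also negative. Kctd19, which is needed for meiosis in male mice, starts 69 bp from Lrrc36 and had 123 and 189.0 TPM in Znhit1_KO libraries, against 150.5 and 254.8 TPM in CTRL libraries. Its log2 change was -0.44 (SE 0.373) with overlap between groups, beside -1.45 for Lrrc36 without overlap. Among unmarked members, Lrrc51 (-0.95) and Lrrc46 (-0.83) lay beside Numa1 (0.09, SE 0.178) and Mrpl10 (0.05, SE 0.163) in log2 change. Of all 16 neighbours 0 are marked in either direction, where 3.22% of all genes of that table are marked lower and 0.277% higher. With shares that small, nothing is read from the 0. The difference between the genes of a pair was not tested.

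**Figure D4:**
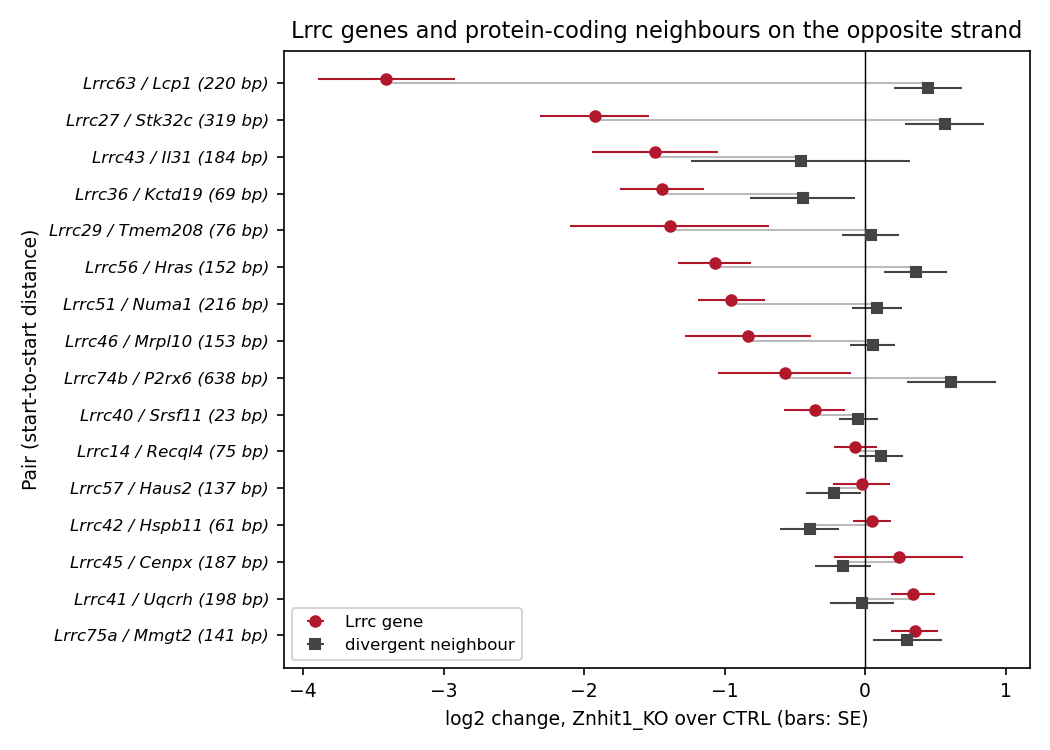
The log2 change (Znhit1_KO over CTRL, bars are SE) of 16 Lrrc genes, as circles, and of the protein-coding gene that starts within 1000 bp on the opposite strand, as squares. Lrrc63, Lrrc27 and Lrrc56 lie below 0 while Lcp1, Stk32c and Hras lie above it.

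Base composition before the starts was close in marked and unmarked members. The 8 marked members with a RefSeq promoter had a median GC content of 56.8%, and the 35 other tested members had 58.8%, taking the highest value where a gene had several starts. The ratio of observed to expected CpG dinucleotides had a median of 0.684 in the marked members, with a range of 0.341 to 1.05, and 0.617 in the others, with a range of 0 to 1.15. Counting every stretch once, the medians were 56.8% GC and a CpG ratio of 0.517 over the 61 member stretches, and 52.4% and 0.373 over all 32851.

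Other genes, most with proteins that carry leucine-rich repeats, are given by list, for comparison. The intracellular list also holds Lrba, Lrrfip1 and Lrrfip2, which are not leucine-rich repeat proteins themselves. Of 38 tested genes of that list, 15 (39.5%, Lrrfip2 among them) were lower and 6 (15.8%) higher without overlap, with a median log2 change of -0.07. Over all genes tested those shares were 21.3% and 21.8%. The authors' deposited table marks 5 of the list lower, where it marks 3.22% of its genes. These 5 were Ppp1r42 (-2.82, SE 0.759), Lrguk, which is needed for sperm tail formation in mice (-2.22, SE 0.434), Lrriq3 (-1.71, SE 0.302), Lrriq1 (-1.59, SE 0.328) and the dynein arm assembly factor gene Dnaaf1 (-1.20, SE 0.372). Lrguk stood at 3.58 and 5.96 TPM in Znhit1_KO libraries, against 16.3 and 34.4 TPM in CTRL libraries. Anp32e, a leucine-rich repeat chaperone that removes H2A.Z from nucleosomes, had a log2 change of 0.16 (SE 0.150) and 80.9 and 87.9 TPM in Znhit1_KO libraries, against 79.4 and 59.4 TPM in CTRL libraries. Of 34 tested membrane proteins 3 were lower (8.82%) and 13 higher (38.2%) without overlap, with a median of 0.49 and 0 marked. The highest log2 change among them, 2.12 (SE 0.884) for Lrfn5, came at no more than 0.0759 TPM in any library. Of 17 tested proteoglycans 1 was lower (5.88%) and 6 were higher (35.3%), with a median of 0.20 and 0 marked. These lists were chosen with earlier results known, and no difference between them was tested.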

How the data were processed

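RNA was measured in 4 mouse testis libraries, 2 per group. The build mm10 and the tools StringTie 2.2.1, HISAT2 2.2.1, cutadapt 2.5 and DESeq2 1.38.3 appear in the submitters' processing notes, with no role; the sources used here give no settings, counting step, strandedness or annotation. The authors deposited one estimated count per gene and library. These are whole numbers, but 4 occurs more often than its neighbours (1109 genes against a mean of 736 for 3 and 5 in CTRL replicate 1), so they are not taken as plain read counts, and their sums are not a number of reads. For 25236 genes the authors also deposited TPM in each library, log2 fold changes with SE, a Wald score, p-values and a mark for fold and adjusted p.

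Counts were tested with edgeR 4.0.16 in R 4.3.3 (TMM, filterByExpr by group, quasi-likelihood F-test, genotype as the term, Benjamini-Hochberg adjustment over 24116 genes). SEs come from the F statistic. DESeq2 1.42.0, limma 3.58.1 (voom), other scalings, no filter, a replicate block and each library left out were alternatives. The edgeR script was tested on simulated data. Positions and overlaps are from GENCODE M21 (65 of 65 members found), promoters from RefSeq GRCm38.p6. The labels call the libraries biological replicates. The p-values set the difference between groups against the spread between libraries of a group, estimated from 2 libraries in each. Values in every library were given for members marked by the authors, for those with at least 1 mean CPM, no overlap and a log2 change of 1 or more in either direction, and for the 5 of highest TPM; other members were named after their values were seen. Members, role lists and marker lists were chosen with earlier results of these data known.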

Additional observations from a re-analysis of the deposited data

How the results depend on the processing

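Over all genes edgeR called 0 and limma-voom 0; DESeq2 called 1024, of which 922 lower, and edgeR with the replicate number as a block called 2737, of which 1923 lower. Under that replicate block 14 members were called lower and 2 higher, with a median log2 change of -0.07. Same-numbered libraries deviated together (r = 0.42 across genes), but with 2 pairs and no label of a shared source the numbers do not establish a pairing. With 1 library left out, edgeR called between 0 and 754 genes (754 without CTRL replicate 1). The member median of -0.13 was -0.18 with DESeq2, -0.065 with limma-voom and -0.068 with upper quartile factors, and ran from -0.30 to -0.049 with 1 library left out; the DESeq2 median took in 63 members. Members lower without overlap numbered 13 to 15 under other scalings or no filter and 20 to 24 with 1 library left out; members higher without overlap numbered 12 to 13 and 16 to 22. Fewer libraries make an absence of overlap easier to meet. Of 330 single-gene values recomputed, 4 turned: the sign changed for Lrrc59 on leaving out Znhit1_KO replicate 1 (0.0073) or CTRL replicate 2 (0.16), and for Lrrc8b on leaving out Znhit1_KO replicate 1 (-0.0064) or CTRL replicate 1 (-0.069). With 1 library left out, Lrrc59 ran from -0.28 to 0.16 and Lrrc8b from -0.069 to 0.37; the cause was not tested. All 9 members marked by the authors stayed negative in each of the 11 alternatives. Because they were marked as lower in these same libraries and did not overlap between groups, this is no support. Groups of 2 libraries limit the precision of every value.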
